A study of Mus musculus with 12 samples.

Results

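The 9 genes S100a8, S100a9, Ltf, Camp, Ngp, Lcn2, Mmp8, Mmp9 and Ly6g encode proteins that a neutrophil makes late in its development, and their symbols each matched 1 row among the 24454 genes of the deposited table. They were described in 12 libraries of sorted leukemic blasts, by genotype and by organ. The blasts came from murine fetal liver cells, either wildtype (WT) or deficient for STAT3β (Δβ), the shorter splice form of the transcription factor STAT3. All cells of both genotypes had been transformed with a retrovirus that carried the leukemia fusion gene MLL-AF9 and a Venus reporter, which marks the transplanted cells and not those of the host, and were injected into young adult male NOD.Cg-Prkdcscid Il2rgtm1Wjl/SzJ mice, a strain with no T, B or NK cells of its own but with neutrophils. When the hosts were diseased, Venus-positive blasts were sorted from the spleen (SP) and the bone marrow (BM), and poly-A RNA was sequenced. The 4 groups, WT SP, Δβ SP, WT BM and Δβ BM, had 3 replicates each. The sources used here do not say whether each replicate was 1 mouse, so p-values measure only the spread between these libraries.

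Neutrophils fill their granules in sequence as they mature in the BM. Myeloperoxidase and elastase are made first, at the promyelocyte stage, and go into primary granules. Lactoferrin and its companions follow at the myelocyte stage in specific granules, gelatinase enters a later granule class, and the cytosol of the mature cell is rich in calprotectin, the heterodimer of S100A8 and S100A9. MLL-AF9 holds myeloid cells at an immature stage, and transcripts of this late programme are commonly read as a sign of maturation. The factor C/EBPε, a bZIP protein, is known for its role in turning on the specific granule genes.

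S100a8 (chr3:90668978-90670035, plus strand) and S100a9 (chr3:90692632-90695721, minus strand; all positions in GRCm38) lie 22.6 kb apart with 0 protein-coding genes between them. Camp (chr9:109847379-109849617, minus strand), Ngp (chr9:110419747-110423012, plus strand) and Ltf (chr9:111019271-111042767, plus strand) lie on one stretch of chromosome 9, with Camp and Ngp 570.1 kb apart and Ngp and Ltf 596.3 kb apart. Mmp8 (chr9:7558456-7568485, plus strand) is far from them on the same chromosome. Lcn2 (chr2:32384633-32388252, minus strand), Mmp9 (chr2:164940780-164955850, plus strand) and Ly6g (chr15:75155240-75159126, plus strand) have no other member nearby. All 9 are protein-coding genes, and the exons of none of them overlapped those of another annotated gene.

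Because the members rose and fell together across libraries, as described below, the bases before their starts were compared. RefSeq (GRCm38.p6) gave a promoter for 8 of the 9 genes, with no entry for Mmp9. The windows shown are for the 5 genes among the most abundant or best known of the list, each up to 140 bases that end just before the first annotated exon, written 5′ to 3′ on the gene's strand. Capitals mark each match to TTNNGNAA on either strand, a loose form of the site that C/EBP proteins bind.
S100a8, chr3:90668838-90668977, plus strand: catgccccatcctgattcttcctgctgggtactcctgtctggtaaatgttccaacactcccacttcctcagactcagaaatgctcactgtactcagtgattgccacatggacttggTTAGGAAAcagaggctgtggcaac
S100a9, chr3:90695722-90695861, minus strand: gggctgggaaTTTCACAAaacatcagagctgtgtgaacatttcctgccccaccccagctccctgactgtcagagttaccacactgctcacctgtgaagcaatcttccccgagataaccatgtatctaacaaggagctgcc
Ltf, chr9:111019131-111019270, plus strand: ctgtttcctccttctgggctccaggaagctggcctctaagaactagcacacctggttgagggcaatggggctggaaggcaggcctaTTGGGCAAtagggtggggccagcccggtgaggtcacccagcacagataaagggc
Ngp, chr9:110419607-110419746, plus strand: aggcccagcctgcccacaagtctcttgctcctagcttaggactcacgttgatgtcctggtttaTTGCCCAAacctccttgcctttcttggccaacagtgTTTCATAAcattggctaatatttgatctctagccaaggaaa
Camp, chr9:109849618-109849706, minus strand: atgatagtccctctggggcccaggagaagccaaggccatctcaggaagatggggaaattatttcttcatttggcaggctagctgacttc
Over the 250 bases before each RefSeq start, 7 of the 8 members held at least 1 match, all but Camp. The same letters occurred in 9969 of 27025 promoters of that length, or 36.9%. TTCNNNGAA, the palindrome bound by STAT dimers, occurred in 0 of the 8 and in 7.18% of all promoters. These counts describe letters only, and binding was not measured.

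The libraries held 9001051 to 13859727 reads on genes, and the values below are the authors' normalized counts (reads divided by 1 size factor per library) unless stated. Of the genes, 11476 had a mean of at least 10 and were tested, and all 9 members were among them. The sorted cells carried the blast markers Myb, Hoxa9, Meis1 and Kit in every library, and the 7 blast markers summed to 5074 to 18536. Markers of cell types outside the myeloid lineage were also summed: the 9 erythroid markers summed to 5.43 to 17.3, and the 6 T and NK cell markers summed to 2.24 to 78.3 in 11 libraries and to 238 in Δβ BM replicate 1. The summed markers were at 224 to 466 for B cells, mostly Cd79b, 48.4 to 107 for megakaryocytes, 2.14 to 57.5 for stroma and endothelium and 6.41 to 30.4 for dendritic cells. The 9 macrophage markers summed to 2692 to 8003, almost all of it Adgre1 (F4/80) and Vcam1. Each of the others, C1qa, C1qb, C1qc, Cd5l, Mrc1, Spic and Siglec1, was at 30.8 or less in every library. The 6 markers of eosinophils, basophils and mast cells summed to 299 to 1683 in 11 libraries and to 3134 in Δβ BM replicate 3. The part of such cells in the results was not tested. Stat3 itself, counted over both splice forms, averaged 3690 ± 727 (SD, n = 3) in WT SP and 2936 ± 283 in Δβ SP, and such counts cannot check the loss of the β form. WT SP replicate 3 stood apart from the other WT SP libraries. The 8 primary granule genes summed to 188320 there against 31831 and 41313 in WT SP replicates 1 and 2, and the 11 markers of mature neutrophils summed to 11783 against 26758 and 34159. Results that rest on WT SP were therefore also computed without it.

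The list contained some of the most abundant transcripts of the blasts. Together the 9 members took 0.939 to 3.68% of all reads on genes. Per exon length, S100a9 ranked first or second among all genes in every library, at a median RPKM of 6713 (reads per kb of merged exons, scaled to the reads on genes). Ngp (neutrophilic granule protein, a cystatin-like protein) followed with a median of 3928, S100a8 with 3728 and Camp with 2353 on the same scale. S100a8 ranked between 2 and 6, Ngp between 1 and 7 and Camp between 2 and 12. A lower tier held Lcn2 at 278, Ltf at 177, Mmp9 at 92.5, Mmp8 at 44 and Ly6g at 16.7. The ranges of the 4 upper and the 5 lower genes did not overlap, whereas within a tier each gene's range over the libraries overlapped that of its neighbour. The plot of level per exon length shows both tiers.

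**Figure D1:**
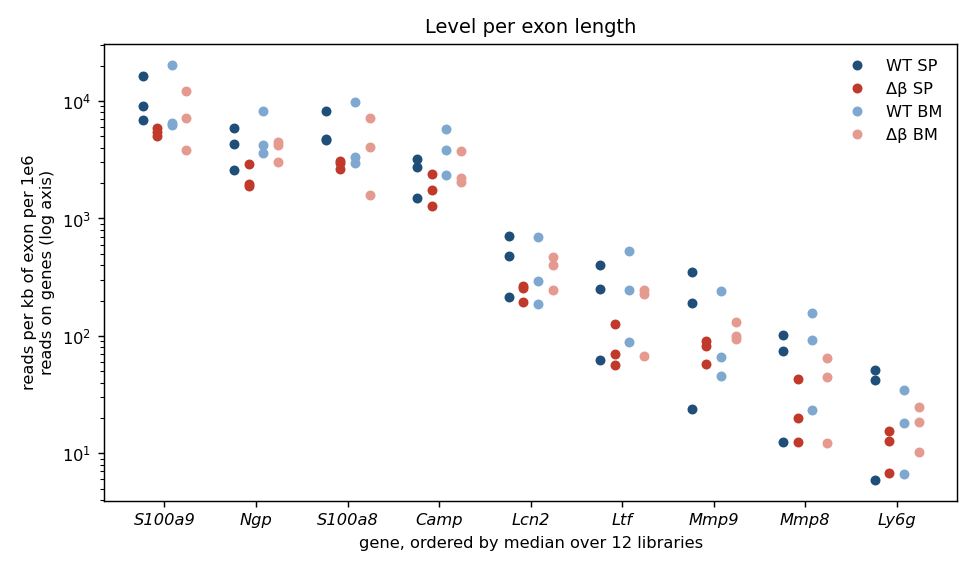
RPKM over merged exons (log axis) for the 9 genes, ordered by their median over the 12 libraries; each point is 1 library, coloured by group. S100a9, Ngp, S100a8 and Camp lie above the other 5 genes in every library, and Ly6g lies lowest with a median of 16.7.

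S100A8 and S100A9 are the calcium-binding subunits of calprotectin, which sequesters zinc and manganese from microbes and acts as an alarmin. S100a8 had normalized counts of 40977, 70767 and 35913 in the WT SP libraries (replicates 1 to 3, in this order here and for each gene) and of 23059, 19009 and 21251 in Δβ SP. The genotypes did not overlap in SP. In BM, S100a8 was at 24905, 21632 and 78001 in WT and at 53833, 29842 and 11492 in Δβ. The BM groups overlapped, and each varied more than Δβ SP, where the highest library was 1.21-fold above the lowest.

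S100a9 was at 59678, 105463 and 39549 normalized counts in WT SP and at 30700, 27531 and 31489 in Δβ SP. These groups again did not overlap. In WT BM it was at 36084, 34001 and 120747, and in Δβ BM at 68925, 39726 and 20736. The highest of the 12 values came from WT BM replicate 3 and the lowest from Δβ BM replicate 3, as for S100a8. The ratio of S100a8 to S100a9 per exon length stayed between 0.417 and 0.683 in all libraries, a 1.64-fold range, while S100a9 itself spanned 5.82-fold.

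Lactoferrin, the iron-binding protein encoded by Ltf, defines the specific granule. Ltf was at 10805, 16962 and 2345 normalized counts in WT SP and at 2581, 4550 and 2012 in Δβ SP. WT SP replicates 1 and 2 were above every Δβ SP library, and replicate 3 fell among them. In BM, Ltf was at 8999, 3216 and 20557 in WT and at 8520, 8976 and 2432 in Δβ, with the Δβ values inside or below the WT range.

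Camp encodes the cathelicidin CRAMP, an antimicrobial peptide precursor. It was at 14235, 30075 and 22751 normalized counts in WT SP and at 14313, 10131 and 18418 in Δβ SP. Here WT SP replicate 1, and not replicate 3, was the low WT library, and the groups overlapped. In WT BM it was at 30765, 18580 and 49890, and in Δβ BM at 31131, 16295 and 17469, so that the highest Δβ library was close to WT replicate 1.

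Ngp was at 66490, 88743 and 34544 normalized counts in WT SP and at 24710, 25105 and 36496 in Δβ SP. WT SP replicate 3 lay just under Δβ SP replicate 3, and the other WT SP libraries lay above all of Δβ SP. In BM it was at 47319, 54252 and 115069 in WT and at 59464, 38984 and 54155 in Δβ. Every Δβ BM library exceeded every Δβ SP library.

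Lcn2 encodes lipocalin 2 (NGAL), which binds bacterial siderophores. It was at 15901, 23087 and 6196 normalized counts in WT SP and at 5491, 6998 and 7100 in Δβ SP. WT SP replicate 3 again fell within the Δβ SP range. In WT BM it was at 5269, 8045 and 20699, and in Δβ BM at 13292, 11090 and 6793, so both Δβ BM replicates 1 and 2 lay above 2 of the 3 WT BM libraries.

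Mmp8, the neutrophil collagenase, is stored in specific granules. It was at 3066, 2224 and 329 normalized counts in WT SP and at 515, 1084 and 310 in Δβ SP. In BM it was at 611, 3982 and 2533 in WT and at 1180, 1644 and 311 in Δβ. Replicate 3 was the lowest library of WT SP, Δβ SP and Δβ BM, and the highest WT BM library was replicate 2, unlike for the other members.

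Mmp9, gelatinase B, is the defining protease of gelatinase granules. It was at 8424, 15184 and 920 normalized counts in WT SP and at 2177, 3001 and 3301 in Δβ SP. WT SP held both the highest and the lowest of the 12 values, 16.5-fold apart. In BM it was at 1722, 2441 and 9756 in WT and at 5075, 3722 and 3476 in Δβ. In Δβ the organs did not overlap, with BM the higher. The ratio of Mmp8 to Mmp9 per exon length ranged from 0.13 to 2.38, or 18.3-fold, in contrast to that of the S100 pair.

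Ly6g encodes the GPI-anchored surface protein of mouse neutrophils that antibodies to Gr-1 recognise. It was the least abundant member, at 606, 491 and 60.9 normalized counts in WT SP and at 68.2, 151 and 124 in Δβ SP. In BM it was at 181, 66.5 and 372 in WT and at 189, 248 and 100 in Δβ. WT SP replicate 3 was the lowest library of all, and replicate 1 of the same group was the highest. The plot of values by library shows all 9 genes.

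**Figure D2:**
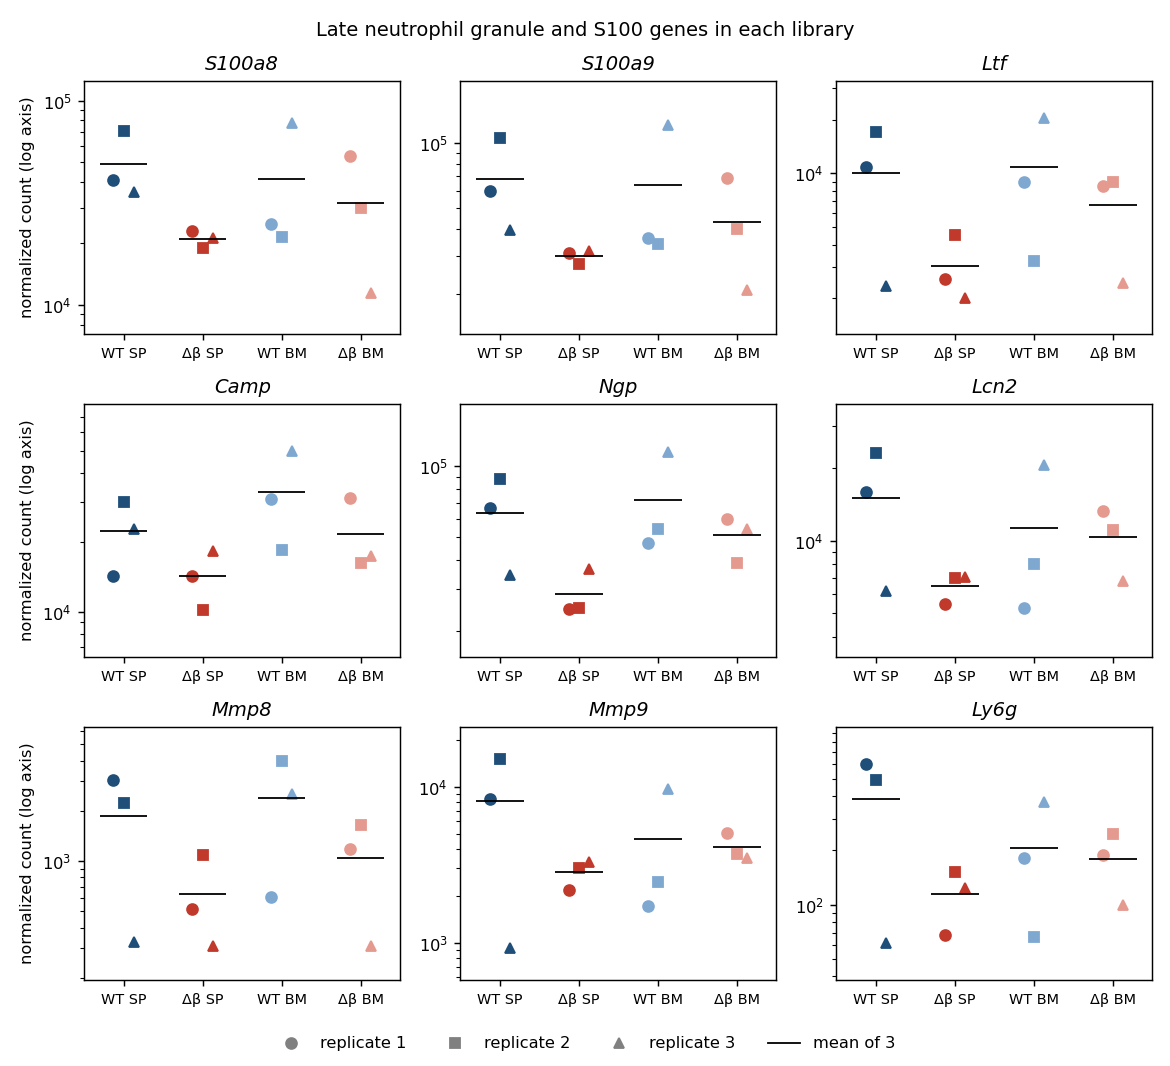
Normalized count (log axis) of each gene in the 12 libraries by group; symbols mark the replicate and the line is the mean of 3. S100a8 and S100a9 separate WT SP from Δβ SP with no overlap, and in the other 7 genes at least 1 WT SP library lies within or below the Δβ SP range.

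Δβ SP had the lowest of the 4 group means for 9 of 9 members. The highest mean was that of WT SP for 5 members (S100a8, S100a9, Lcn2, Mmp9, Ly6g) and that of WT BM for 4 (Ltf, Camp, Ngp, Mmp8). Of the 27 steps between neighbouring group means in these orders, 2 separated groups with no overlap, from Δβ BM to Δβ SP for Ngp and for Mmp9, where 4.51% of all genes did not overlap in that direction. Without WT SP replicate 3, Δβ SP was again lowest for 9 of 9 members, WT SP was highest for 8 and WT BM for 1 (Camp), and 3 steps did not overlap, the former 2 and that from WT SP to WT BM for Ly6g, as 26.2% of all genes did upward in WT SP.

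The first comparison asked whether blasts without STAT3β carried less of the late granule programme in SP. All 9 members were lower in Δβ, with log2 differences from -1.40 to -0.62 and a median of -1.07, where the median over all tested genes was -0.01 and 51.9% of them were below 0. No member passed the test (limma, Benjamini-Hochberg adjusted p under 0.05 over 11476 genes), at which 12 genes, 0.105%, were called. At an unadjusted p under 0.05, limma listed 1 member (Ngp) and 14.9% of all genes, edgeR 3 members and 17.1%, and DESeq2 6 members and 19.4%. Neither edgeR nor DESeq2 called a member after adjustment. In bulk RNA, fewer mature cells among the sorted blasts and less RNA of these genes per cell cannot be told apart.

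S100a8 differed by -1.16 (SE 0.58, 95% interval -2.43 to 0.11, adjusted p = 0.368 by limma), a 2.24-fold lower level. S100a9 differed by -1.075 (SE 0.56, interval -2.30 to 0.15, adjusted p = 0.375). They were the 2 members whose groups did not overlap, as 9.37% of all tested genes did in the same direction. Ngp differed by -1.06 with the smallest error of the list (SE 0.41, interval -1.96 to -0.16, adjusted p = 0.286). Ltf (-1.40, SE 0.83), Ly6g (-1.27, SE 0.84), Mmp8 (-1.23, SE 0.96), Lcn2 (-1.02, SE 0.54) and Mmp9 (-0.82, SE 0.89) had intervals that reached from a more than 4-fold lower level past 0. Camp had the smallest difference (-0.62, SE 0.41, interval -1.52 to 0.28).

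Without WT SP replicate 3, the median over the 9 members was -1.56, against -0.02 for all genes, and 3 members passed the test as lower in Δβ SP: Ngp at -1.44 (SE 0.38, adjusted p = 0.0329 by limma), Ly6g at -2.32 (SE 0.63, adjusted p = 0.0344) and Mmp9 at -2.02 (SE 0.59, adjusted p = 0.0438). The number of genes called lower rose to 1345, or 11.7% of those tested, so 3 of 9 is to be read against that share. Lcn2 (-1.56, adjusted p = 0.0525) and Ltf (-2.24, adjusted p = 0.0665) came next, and S100a8 (-1.36, adjusted p = 0.167), S100a9 (-1.41, adjusted p = 0.122), Mmp8 (-2.23, adjusted p = 0.097) and Camp (-0.58, adjusted p = 0.405) did not pass. The groups of 8 members, all but Camp, then did not overlap, as did those of 30.2% of all genes in that direction. This library was left out after its values had been seen, in part for its low sum of mature neutrophil markers. The members were also low in it, with a mean log2 deviation of -0.81 from their own means. The members' calls and missing overlaps without it therefore follow in part from that choice and are no separate evidence. The 2 remaining WT SP libraries also had the lowest summed blast markers of all 12, at 5074 and 10627. As a mean log2 deviation over the same 7 markers, which weighs each gene alike, they stood at -1.13 and 0.45, the lowest and the second highest of the 12. In replicate 2, Myb (5439), Hoxa9 (2060) and Kit (562) lay under their 12-library means (7903, 2244 and 861). Meis1 (1423) lay above its mean (1266). Hoxa7 and Hoxa10, also among the 7, ranged in WT SP from 287 to 386 and from 88.9 to 799, with 12-library means of 356 and 659. Mecom ranged from 3.42 to 92.3 in WT SP (median 82.7) and was at 8.06 or less in the other groups. The sum and the mean deviation thus ranked replicate 2 differently, and its share of blasts was not tested. The part of the cell composition of these 2 libraries in the result was not tested.

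In BM, the estimates were nearer to 0, and the test of their difference from SP is given below. Of the members, 6 were lower in Δβ and 3 higher, with a median log2 difference of -0.41 against -0.02 for all genes, of which 54.7% were below 0. The genotypes overlapped for all 9 members, while they did not for 7.63% of all genes. No member was called, and limma called 8 genes, or 0.0697%. At an unadjusted p under 0.05, reached by 2.59% of genes with limma, each of limma, edgeR and DESeq2 listed 0 members. Mmp8 had the largest difference (-1.12, SE 0.96, 95% interval -3.23 to 0.99). S100a8 (-0.40, interval -1.67 to 0.88) and S100a9 (-0.46, interval -1.68 to 0.76) had intervals that contained both no change and a more than 3-fold lower level. Lcn2 (0.06), Mmp9 (0.23) and Ly6g (0.02) were the 3 above 0 and turned to below 0 with edgeR and DESeq2. The sign in BM rested on single libraries. Without WT BM replicate 3, 6 members were above 0 and the median was 0.13. Without Δβ BM replicate 3, 5 were above 0 and the median was 0.06. In the other direction, 8 were below 0 with a median of -0.85 without Δβ BM replicate 1, 9 were below 0 with a median of -0.62 without WT BM replicate 2, and 8 were below 0 with a median of -0.56 without WT BM replicate 1.

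The next comparisons asked how blasts of one genotype differed between the organs. In WT, 5 members were higher and 4 lower in SP than in BM, with a median log2 difference of 0.25, where 50% of all genes were higher. No member was called by limma, edgeR or DESeq2, and each listed 0 members at an unadjusted p under 0.05. Over all genes limma and edgeR called 0 (0%) and DESeq2 106, with 8.27% at an unadjusted p under 0.05 in limma. Ly6g (0.67, 95% interval -1.18 to 2.52) had the largest difference upward and Camp (-0.52, interval -1.42 to 0.39) the largest downward. Without WT SP replicate 3, 8 of the 9 members were higher in SP with a median of 0.63, and without WT BM replicate 3, 7 were higher with a median of 0.84. Leaving out WT SP replicate 2 turned the direction, with 6 lower and a median of -0.31, as did leaving out WT BM replicate 1, with 5 lower and a median of -0.03. The median was 0.07 without WT SP replicate 1 and 0.02 without WT BM replicate 2. Each time, 0 members were called.

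In Δβ, all 9 members were lower in SP than in BM, with log2 differences from -0.99 (Ltf, interval -2.81 to 0.83) to -0.33 (S100a8, interval -1.60 to 0.94) and a median of -0.60, where 49.6% of all genes were lower. Again limma called 0 members and 0 genes (0%), with 1.77% of genes and 0 members at an unadjusted p under 0.05. edgeR called 0 genes, and DESeq2 called 2 genes and 0 members and listed Ngp at an unadjusted p under 0.05, as it did 2.11% of genes. Without Δβ BM replicate 1, 7 members were lower with a median of -0.37, and without Δβ BM replicate 3, 9 were lower with a median of -0.90. Ngp (-0.82, SE 0.41, interval -1.72 to 0.08) and Mmp9 (-0.54, SE 0.89, interval -2.50 to 1.43) had no overlap between the organs, which held for 4.51% of all genes in that direction. The expression deviations of Δβ SP and Δβ BM libraries of the same number were correlated, so each number was also followed on its own. All 9 members were lower in SP for replicates 1 and 2, with median differences of -1.22 and -0.65, while for replicate 3 the split was 4 lower and 5 higher, with a median of 0.06.

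The genotype effects in SP and in BM were compared directly with an interaction term. The estimate was more negative in SP for all 9 members, as for 50% of all genes, with a median of -0.77 on the log2 scale, from -0.06 for Camp (95% interval -1.34 to 1.22) to -1.30 for Ly6g (interval -3.91 to 1.32). No member passed (lowest adjusted p = 0.926 by limma), and limma called 0 genes of the 11476 (0%), with 3.2% of genes and 0 members at an unadjusted p under 0.05. edgeR called 0 genes and DESeq2 3, in neither case a member. Leaving out 1 library at a time moved the median from -1.35 (without WT BM replicate 3) to -0.25 (without WT SP replicate 2, where 2 members were above 0), and it was -1.11 without WT SP replicate 3 and -0.39 with quantile normalization. In each case 0 members were called, with a lowest adjusted p of 0.215 by limma, reached without WT SP replicate 3. A difference of the genotype effect between the organs was not detectable with 3 libraries a group, and a p that misses the threshold does not show that the organs were alike. All of these comparisons share libraries, and their values are given side by side, not as separate evidence. The plot of differences with intervals shows the width of these estimates.

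**Figure D3:**
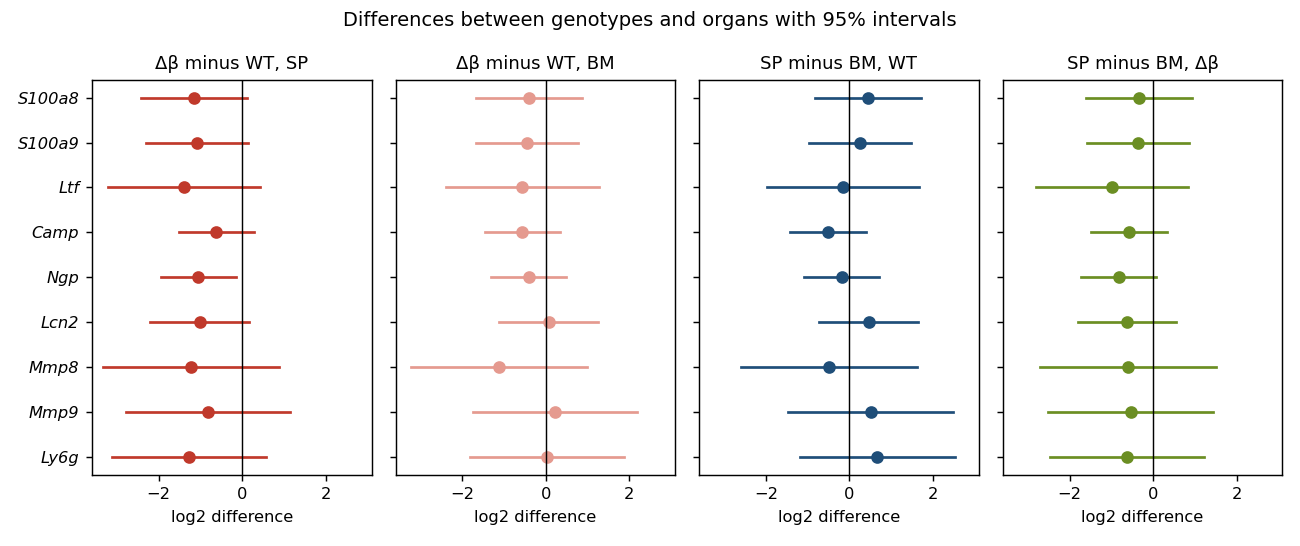
Log2 difference with its 95% interval (limma, 3 libraries a group) for the 9 genes in 4 comparisons. In SP every estimate for Δβ minus WT lies below 0, and all intervals but that of Ngp cross 0.

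The members varied more between replicates than most genes. Their within-group SD on the log2 scale was 0.54 (Ngp) to 1.36 (Mmp8), where the median over tested genes was 0.27, which put them between the 80.9th and the 97.5th percentile. The spread was uneven across groups: for S100a9 the SD was 0.10 in Δβ SP and 0.71, 1.03 and 0.87 in WT SP, WT BM and Δβ BM. Averaged over the 9 members, the log2 deviation from each gene's own mean was 0.78, 1.27 and -0.81 in the WT SP libraries, and -0.83, -0.50 and -0.65 in Δβ SP. It was -0.22, -0.21 and 1.34 in WT BM and 0.47, 0.14 and -0.76 in Δβ BM. WT SP replicate 2 and WT BM replicate 3 had the highest averages. These libraries and Δβ BM replicate 1 each had 9 of 9 members above their own mean, and the 3 Δβ SP libraries were among the 5 lowest. The heatmap of deviations shows this by gene.

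**Figure D4:**
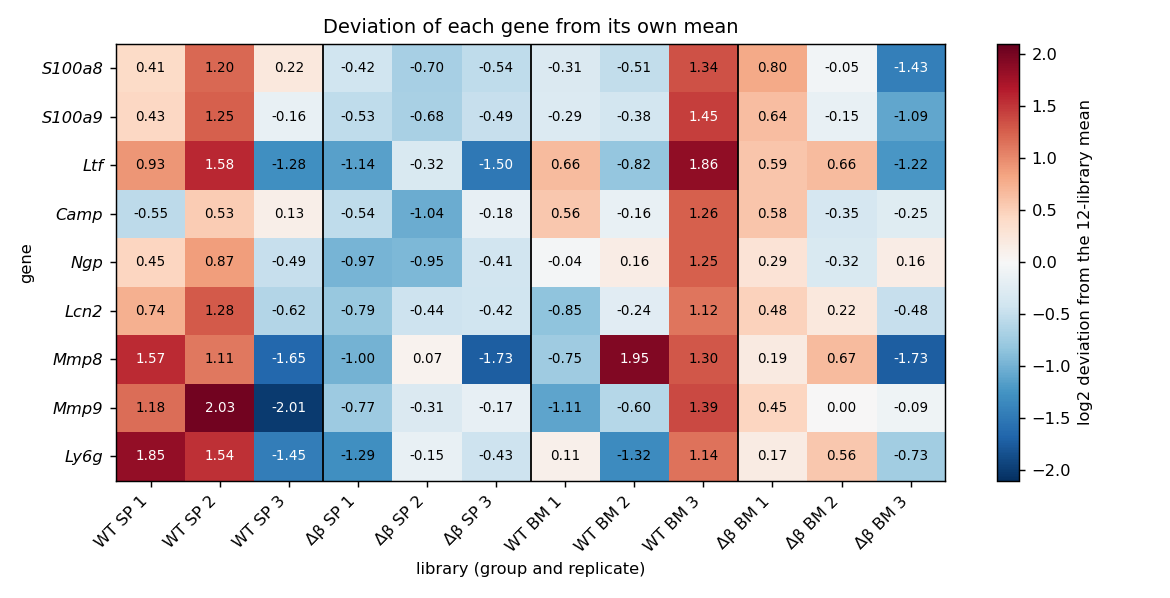
Log2 deviation of each gene (rows) from its mean over the 12 libraries (columns, 3 per group). WT SP replicate 2, WT BM replicate 3 and Δβ BM replicate 1 are above the mean for all 9 genes, and the 3 Δβ SP libraries are below it for at least 8.

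Across the 12 libraries the pairwise Pearson r among members had a median of 0.71 over 36 pairs and ranged from 0.16 (Camp with Mmp8) to 0.98 (S100a8 with S100a9). Taken as deviations from the group means, the median was 0.70. The genes followed the programme to different degrees. Lcn2 and Mmp9 were close (r = 0.91), as were Ltf and Ly6g (0.88), while Camp followed Ngp (0.74) more than Lcn2 (0.47) or Mmp9 (0.31). Over the 11 libraries without WT SP replicate 3 the median was 0.73, from 0.20 to 0.99. These values are descriptive, since all points share library size and composition.

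Among the other tested genes, those most like the members' mean profile over the 12 libraries were 9830107B12Rik (r = 0.951), Gm5483 (0.950), B430306N03Rik (0.937), BC100530 (0.933), Slc2a3 (0.932), Pram1 (0.929), Ifnlr1 (0.924) and Adpgk (0.922). These 8 had r of 0.92 to 0.95 without WT SP replicate 3. Gm5483 and BC100530 are stefin A family genes that can share reads with close copies, so their separate values are uncertain. Slc2a3 encodes a glucose transporter, and Pram1 an adaptor protein of granulocytes.

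The 28 other genes of the late neutrophil programme (further granule, membrane and surface proteins) had estimates of similar size. In SP, 27 of 28 were below 0 in Δβ, with a median of -1.06, where 51.9% of all genes were below 0. At an unadjusted p under 0.05, 13 were lower, as were 8.96% of all genes. By limma, 0 were called. Chil3 (Ym1, a chitinase-like lectin, -0.47, SE 0.72), the most abundant, and Hp (haptoglobin, -0.42, SE 0.24) differed by less than 2 SE, while Lyz2 (lysozyme, -1.57, SE 0.69) and Olfm4 (olfactomedin 4, a specific granule glycoprotein, -1.30, SE 0.44) had larger differences. The exception above 0 was Chil1 (a chitinase-like protein, 2.75, SE 0.61), named here after its value was seen. When WT SP replicate 3 was left out, the median was -1.63, with 17 of the 28 called lower, as were 11.7% of all genes, and 1, Chil1, higher, as were 4.7%. In BM the median was -0.26, and in the organ comparisons it was 0.51 in WT and -0.32 in Δβ, with 0 genes called. The 11 markers of mature neutrophils, all 11 of which also belong to the former list, had a median of -1.55 in SP. Without WT SP replicate 3 it was -2.07, and 7 were called lower, as were 11.7% of all genes. That library had been set apart in part by its low sum of these 11 markers. Calls of these markers, and of the list of 28 that holds them, therefore follow in part from that choice and are no separate evidence. With all 12 libraries, 3 of the 11 markers were lower in Δβ SP with no overlap, as were 9.37% of all genes. They were Cd177 (a surface receptor partner of proteinase 3, -1.83, SE 0.59), Padi4 (the histone-citrullinating enzyme, -1.89, SE 0.40) and Trem1 (-2.09, SE 0.67). Trem1 is named here after its value was seen.

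The median difference of the primary granule genes, made earlier, depended on 1 library. Of 8, 6 were above 0 in Δβ SP with a median of 0.14, where 48.1% of all genes were above 0. By limma, 0 were called. When WT SP replicate 3 was left out the median was 0.89, and 5 of the 8 were higher with no overlap, as were 24.9% of all genes. Mpo (myeloperoxidase) was at 5947, 5256 and 40587 normalized counts in WT SP and at 53209, 25775 and 30744 in Δβ SP, a log2 difference of 1.69 (SE 0.69, adjusted p = 0.303 by limma). WT SP replicates 1 and 2 lay far below all Δβ SP libraries and replicate 3 lay among them. In BM it was at 14555, 8288 and 5172 in WT and at 41895, 27630 and 24214 in Δβ, a log2 difference of 1.83 (SE 0.69, adjusted p = 1). The BM groups did not overlap for Mpo, as upward for 3.5% of all genes. Elane (neutrophil elastase, 0.10), Prtn3 (proteinase 3, 0.46) and Serpinb1a (their inhibitor, -0.04) differed by less than their errors in SP. Without WT SP replicate 3, limma called Mpo (2.64, adjusted p = 0.00924) and Prtn3 (1.18, adjusted p = 0.0217) higher in Δβ SP, as it did 4.7% of all genes. That library had been set apart in part by its high sum of these primary granule genes. These calls therefore follow in part from that choice and are no separate evidence. Over the 12 libraries Mpo had an r of -0.75 with the members' profile and Elane -0.40, and over the 11 without that library -0.73 and -0.31. The plot of list profiles sets the early and late granule genes side by side.

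**Figure D5:**
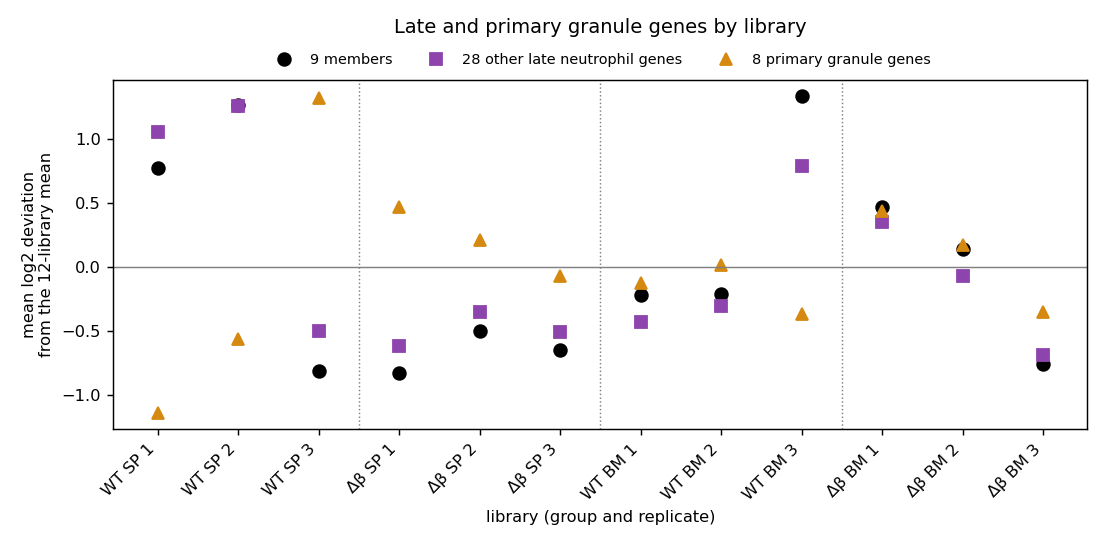
Mean log2 deviation from the 12-library mean for the 9 members, 28 other late neutrophil genes and 8 primary granule genes in each library. In WT SP the primary granule genes are low in replicates 1 and 2 (-1.14 and -0.56) and high in replicate 3 (1.32), opposite to the late genes.

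Of 11 transcription factors of granulocyte development, 7 were below 0 in Δβ SP (median -0.23), as were 51.9% of all genes. At an unadjusted p under 0.05, 3 were lower, as were 8.96% of all genes. By limma, 0 of the 11 were called in any comparison of all 12 libraries. With WT SP replicate 3 left out, the median was -0.29. Of the 11, 4 were then called lower in Δβ SP, Cebpb and Spi1 among them, as were 11.7% of all genes. Gfi1 was called higher, as were 4.7%. The values that follow are from all 12 libraries. Spi1 (PU.1) was at 9726, 7918 and 5839 normalized counts in WT SP and at 5011, 4348 and 5135 in Δβ SP, with no overlap (-0.67, SE 0.19, adjusted p = 0.218 by limma). The other factors at an unadjusted p under 0.05 by limma were Cebpa (-0.77, SE 0.21) and Trib1 (-2.80, SE 1.05). They are named here after their values were seen. Cebpb (-0.52, SE 0.30), Cbfb (-0.23, SE 0.11) and Gfi1 (0.34, SE 0.58) did not pass the adjusted threshold either. In SP, 4 of the 11 were lower with no overlap (Spi1, Cebpa, Trib1 and Cbfb), as were 9.37% of all genes. In BM, 2 were, Cebpa (-0.415, SE 0.21) and Cbfb (-0.17, SE 0.11), as were 4.13%. Cebpe, which encodes C/EBPε and is named here for the promoter matches, differed by -0.15 (SE 0.37) in SP and had an r of 0.05 with the members' profile, or 0.09 without WT SP replicate 3.

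Among genes related to the members by family or partner, 6 of 15 other S100 genes were tested, and 0 were called. Of these, 5 were below 0 in Δβ SP (median -0.44), where 51.9% of all genes were below 0. S100a11 was at 2423, 2428 and 1945 in WT SP and at 1352, 1196 and 1437 in Δβ SP (-0.77, SE 0.20, adjusted p = 0.205 by limma). Its groups did not overlap, as downward for 9.37% of all genes. Those of S100a4 (-1.83, SE 0.82), S100a6 (-1.72, SE 0.69) and S100a10 (-0.11, SE 0.54) overlapped. Of 14 receptors and partners of the members' products, 11 were tested and 9 were below 0 (median -0.60), among them Nptn (neuroplastin, a receptor of S100A8, -0.60, SE 0.22), Lrp1 (a receptor of lactoferrin, -0.84, SE 0.66) and Fpr2 (a receptor of cathelicidin, -1.55, SE 0.91), with Bsg (basigin, 0.06, SE 0.13) near 0. Of 5 inhibitors of metalloproteinases, Timp2 (-1.13, SE 0.68) and Reck (-1.20, SE 0.36) were tested, and Timp1 was at 3.26 counts or less in all libraries. The 4 tested genes of 18 other metalloproteinases had a median of -0.52, with Mmp25, a membrane protease of neutrophils, at -0.69 (SE 0.68). The 5 tested genes of 8 other Ly6 genes were split, 3 above and 2 below 0, with a median of 0.41. Their values were 0.41 (SE 0.27) for Ly6e, 0.43 (SE 0.25) for Ly6c2 and -0.22 for both Ly6i and Ly6k. Ly6a, named here after its value was seen, had the largest difference, 1.83 (SE 0.58, adjusted p = 0.235 by limma). Its mean counts were low, 10.2 in WT SP and 38.4 in Δβ SP. In BM it differed by 2.27 (SE 0.58). The genotypes did not overlap for Ly6a in either organ, as upward for 7.92% of all genes in SP and 3.5% in BM. By limma, none of these genes was called in any of the 5 comparisons of all 12 libraries. Calls for the lists beside the members were read from limma alone, not from edgeR or DESeq2. Without WT SP replicate 3, 3 of the 6 S100 genes (S100a4, S100a6, S100a11), 5 of the 11 receptors and partners and both inhibitors were called lower in Δβ SP. Of the metalloproteinases 0 were called, and 1 Ly6 gene, Ly6a, was called higher. These counts are to be read against all genes, of which that fit called 11.7% lower and 4.7% higher. Fpr2, called lower, is also among the 11 markers of mature neutrophils whose low sum set that library apart in part. The calls of that fit are therefore no separate evidence. The medians were then -0.79 for the S100 genes, -0.85 for the receptors and partners, -0.93 for the metalloproteinases and 0.31 for the Ly6 genes. Several of these genes stand on more than 1 list.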

How the data were processed

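Poly-A RNA of Venus-sorted blasts was measured in 12 libraries, 3 per genotype and organ, grouped by their labels. The submitters' processing notes name FastQC, STAR, featureCounts, DESeq2 and GRCm38 (mm10), and versions and strand settings are not given in the sources used here. The authors deposited 1 signal value per gene and library, a count divided by a size factor. All values (100% in the lowest library, tolerance 0.001 reads) were whole multiples of what 1 read is worth, so reads and depth (9001051 to 13859727 on genes) were recovered. A further 6 columns carry no sample label and were not used. The header names stand 1 column to the left of the values, which was corrected.

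Genes with a mean of at least 10 (11476) were tested on log2(value + 1) with limma 3.58.1 (R 4.3.3) in 1 fit of the 4 groups, Benjamini-Hochberg adjusted p under 0.05. edgeR 4.0.16 and DESeq2 1.42.0 on the recovered reads, other pseudocounts, filters and scalings, the replicate block and leaving out each library were alternatives. Fold changes are on the log2(value + 1) scale. The code was tested on simulated data. With 0 changed genes, limma and edgeR called 0 genes, and DESeq2 called 13 for genotype in SP and 6 for organ in WT. With 200 changed genes, DESeq2 made 30 and 32 false calls in these comparisons, limma 5 and 7, and edgeR 4 and 7. Per-length levels use the merged exons of the GENCODE annotation of GRCm38, 24101 of 24454 genes of which matched by gene ID or symbol. Promoters are from RefSeq. Deviations of Δβ SP and Δβ BM libraries of the same number correlated (r = 0.664, 0.608 and 0.634 over genes), those of WT did not (-0.009, -0.039 and -0.237). Same-number libraries were thus alike in Δβ only. The labels state no pairing, and the source of this likeness was not tested. The main fit, with its errors, intervals and p-values, treated all libraries as independent, and the replicate block was the alternative with number terms. Members and lists were chosen with earlier results of these data known. Genes named beside the members are the 4 with the highest mean of a list, the 8 most alike, and those said to be chosen after their values were seen.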

Additional observations from a re-analysis of the deposited data

How the results depend on the processing

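The count of genes called for genotype in SP was 12 and fell to 1 with a pseudocount of 0.25, 5 without a filter, 2 with a minimum mean of 50, 3 with TMM, 5 with edgeR, 2 with the SP libraries alone and 1 with the replicate block, and was 481 with DESeq2. In BM it was 8, and 37 with DESeq2, 3 with the BM libraries alone and 1 with the replicate block. DESeq2 called 106 genes for organ in WT, 2 for organ in Δβ and 3 for the difference, where limma called 0. The cause was not tested. No setting but leaving out WT SP replicate 3 called a member, and the block changed no member's call.

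Leaving out 1 library at a time gave 1 to 1884 genes and 0 to 3 members for SP, 1 to 13 genes for BM and 0 to 598 for organ in WT, the highest without WT SP replicate 3 in SP and WT. In SP all 9 members stayed below 0 under each alternative run, with Mmp9 at -0.001 without WT SP replicate 2. Quantile normalization turned S100a9 for organ in WT to -0.14 and Camp for the difference to 0.28, and moved the SP median to -0.63. In BM, Lcn2, Mmp9 and Ly6g turned to -0.13, -0.18 and -0.21 with edgeR and to -0.13, -0.18 and -0.20 with DESeq2.

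Signs also turned when 1 library was left out. For genotype in BM the values ran from -0.91 to 0.20 (S100a8), -0.88 to 0.13 (S100a9), -1.25 to 0.086 (Ltf), -0.37 to 0.62 (Lcn2), -0.28 to 0.98 (Mmp9) and -0.62 to 0.61 (Ly6g). For organ in WT they ran from -0.12 to 0.84 (S100a9), -0.85 to 0.69 (Ltf), -0.48 to 0.22 (Ngp), -1.28 to 0.51 (Mmp8) and -0.31 to 1.71 (Mmp9). For organ in Δβ they ran from -0.93 to 0.18 (S100a8) and -0.81 to 0.057 (S100a9), and for the difference from -0.41 to 0.30 (Camp) and -1.11 to 0.68 (Mmp8). With 3 libraries a group, the within-group spread of these genes limits what the tests can show.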
